A study of Mus musculus with 6 samples.

Results

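The genes described here are 10 immediate early genes of mouse bone marrow. They are the AP-1 subunit genes Fos, Fosb, Jun, Junb and Jund, the AP-1 partner gene Atf3, the zinc-finger factor genes Egr1 and Egr2, the orphan nuclear receptor gene Nr4a1 and the survival gene Ier3. Every probe set that the array annotation assigns to exactly 1 of these symbols was taken, which gave 13 probe sets out of 45037. All 10 genes were found among 18193 named genes, 7 with a single probe set and 3 (Jun, Jund and Egr2) with a pair. Whole bone marrow came from 3 SCID/Bg mice given NOX-A12 and from 3 untreated SCID/Bg mice, with 1 Affymetrix Mouse Genome 430 2.0 array per mouse. SCID/Bg mice, in both groups, carry the scid defect in antigen-receptor recombination and the beige defect of lysosome-related granules, so mature T and B cells are lacking and natural killer cells are impaired. NOX-A12 is an oligonucleotide of L-ribose, the mirror form of natural RNA, designed to neutralise the chemokine CXCL12. The labels give neither its dose and schedule nor the age of the mice. The titles number the mice, so each value below is that of 1 animal.

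Immediate early genes are transcribed within minutes of a stimulus, from factors already present in the cell. FOS proteins pair with JUN proteins through leucine zippers to form AP-1, which binds the sequence TGANTCA. ATF3 joins the same family of dimers, whereas EGR factors bind GC-rich sites through zinc fingers. In marrow these factors act in myeloid differentiation and in the activation of neutrophils and monocytes.

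Promoter sequence is shown for 5 of the genes: Fos, Jun and Junb, whose brightest probe sets were highest in the same 3 mice, and Nr4a1 and Ier3, whose levels did not overlap between groups. Fosb and the brighter probe set of Egr2 did not overlap either, but their windows are not shown. Each run is the 250 bases before the annotated start, 5′ to 3′ on the gene's strand, from RefSeq on GRCm38.p6. Capitals mark TGACG or its complement CGTCA, the core of the cAMP response element, and TGANNTCA, the 8-base form of the AP-1 and cAMP response sites.
Fos, chr12:85473640-85473889, plus strand: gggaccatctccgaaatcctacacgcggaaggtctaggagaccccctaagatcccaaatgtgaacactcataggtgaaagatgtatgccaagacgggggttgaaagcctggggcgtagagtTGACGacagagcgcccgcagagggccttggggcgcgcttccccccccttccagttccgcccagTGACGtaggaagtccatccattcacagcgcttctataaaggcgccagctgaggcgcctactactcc
Jun, chr4:95052223-95052472, minus strand: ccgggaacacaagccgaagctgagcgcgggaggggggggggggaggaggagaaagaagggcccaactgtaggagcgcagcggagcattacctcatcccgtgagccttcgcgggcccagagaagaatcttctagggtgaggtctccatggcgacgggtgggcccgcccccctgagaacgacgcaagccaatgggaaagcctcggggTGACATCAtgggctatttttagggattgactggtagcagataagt
Junb, chr8:84978749-84978998, minus strand: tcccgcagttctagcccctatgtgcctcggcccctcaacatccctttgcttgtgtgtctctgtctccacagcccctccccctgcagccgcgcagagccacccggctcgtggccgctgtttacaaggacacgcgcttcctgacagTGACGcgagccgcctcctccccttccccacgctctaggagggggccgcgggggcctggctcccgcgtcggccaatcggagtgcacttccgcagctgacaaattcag
Nr4a1, chr15:101266596-101266845, plus strand: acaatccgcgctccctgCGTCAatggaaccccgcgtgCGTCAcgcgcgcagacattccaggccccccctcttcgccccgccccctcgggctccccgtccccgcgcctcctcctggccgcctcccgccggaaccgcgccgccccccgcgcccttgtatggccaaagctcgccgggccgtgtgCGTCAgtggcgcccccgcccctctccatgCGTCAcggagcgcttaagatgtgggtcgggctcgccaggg
Ier3, chr17:35821463-35821712, plus strand: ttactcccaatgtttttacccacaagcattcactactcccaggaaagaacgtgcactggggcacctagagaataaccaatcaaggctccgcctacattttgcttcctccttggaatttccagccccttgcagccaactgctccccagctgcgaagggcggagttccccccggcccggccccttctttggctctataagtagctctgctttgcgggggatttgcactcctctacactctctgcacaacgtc

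On both strands, TGACG was present in the 250-base window of 6 of the 9 genes that had a window: Fos, Fosb, Junb, Egr2, Nr4a1 and Atf3. It occurs in 17.8% of all 32851 windows of that length. That share is by window, whereas the 6 of 9 is by gene. The 9 genes had 13 windows, since Egr2 had several, not all of them with TGACG. Nr4a1 had 4 matches, Fos had 2, and Fosb, Junb and Atf3 had 1 each. The windows of Jun and Jund held 1 match of TGANNTCA, a pattern found in 11.9% of windows, and the full AP-1 site TGANTCA (6.75% of windows) was in none of the members' windows. Egr1 had no window here. The CArG box, the site of serum response factor, was found among the 9 genes with a window only for Egr2, 1 match in each window that held it, against 1.47% of all windows. Ier3 had no match of any of these 4 motifs. A TGACG match can lie inside a TGANNTCA match. These matches describe the letters of the windows and not binding.

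The arrays had median intensities from 44.8 to 45.6. The array of untreated mouse 3 stood apart from the others. Across probe sets, a description only, its r with the other arrays was 0.982 to 0.985, and that among the remaining 5 was 0.991 to 0.994. It held 851 probe sets more than 2-fold away from the median of the rest, where each other array held 44 to 67. Erythroid markers were bright, with summed intensities of 36762 to 39361 in NOX-A12 marrow and 34361 to 41034 in untreated marrow. Mature neutrophil markers summed to 87308 to 91120 in NOX-A12 marrow and 83553 to 91273 in untreated marrow. Of the T-cell markers, Cd3e and Cd4 stayed below an intensity of 30 in all 6 mice, while Cd3d was bright. In whole marrow, fewer cells of a type and less RNA per cell cannot be told apart.

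Fos, Jun, Junb and Egr1 differed more between single mice than between the groups, whereas Fosb, Nr4a1 and Ier3 lay higher, and Egr2 lower at its brighter probe set, in every NOX-A12 mouse than in every untreated mouse. Changes are differences of log2(intensity + 16), NOX-A12 minus untreated, with their standard error (SE) from limma, and the added 16 shrinks the changes of dim probe sets. Of the 10 genes, each by its brightest probe set, 8 were higher and 2 lower in NOX-A12 marrow, with a median change of 0.33, beside a median of -0.01 and 47.3% higher over all 18193 genes. With NOX-A12 mouse 1 left out the median was 0.05, and with untreated mouse 3 left out it was 0.21. No change passed the test: 0 of the 13 probe sets had a limma adjusted p under 0.05 (Benjamini-Hochberg over 45037 probe sets), as did 0.00% of all probe sets, and the members' lowest adjusted p was 0.967.

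The members were chosen with earlier results of these data known, so the shares given here describe them and do not test them. At an unadjusted limma p under 0.05, 4 of the 13 probe sets differed, or 30.8%, against 4.97% of all probe sets. Of them, 3 were higher (Fosb, Nr4a1 and Ier3; 1.88% of all probe sets) and 1 was lower (Egr2; 3.10% of all probe sets). Leaving out a NOX-A12 mouse changed the count to 2 (mouse 1), 1 (mouse 2) or 6 (mouse 3), and leaving out an untreated mouse changed it to 3 (mouse 1), 1 (mouse 2) or 1 (mouse 3). The share of 4.97% belongs to the fit of all mice. No share is given for these refits, so their counts describe the members alone. The groups did not overlap at 5 of the 13 probe sets, against 9.85% of all. These were the probe sets of Fosb, Nr4a1 and Ier3, the brighter probe set of Egr2 and the dimmer one of Jund.

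**Figure D1:**
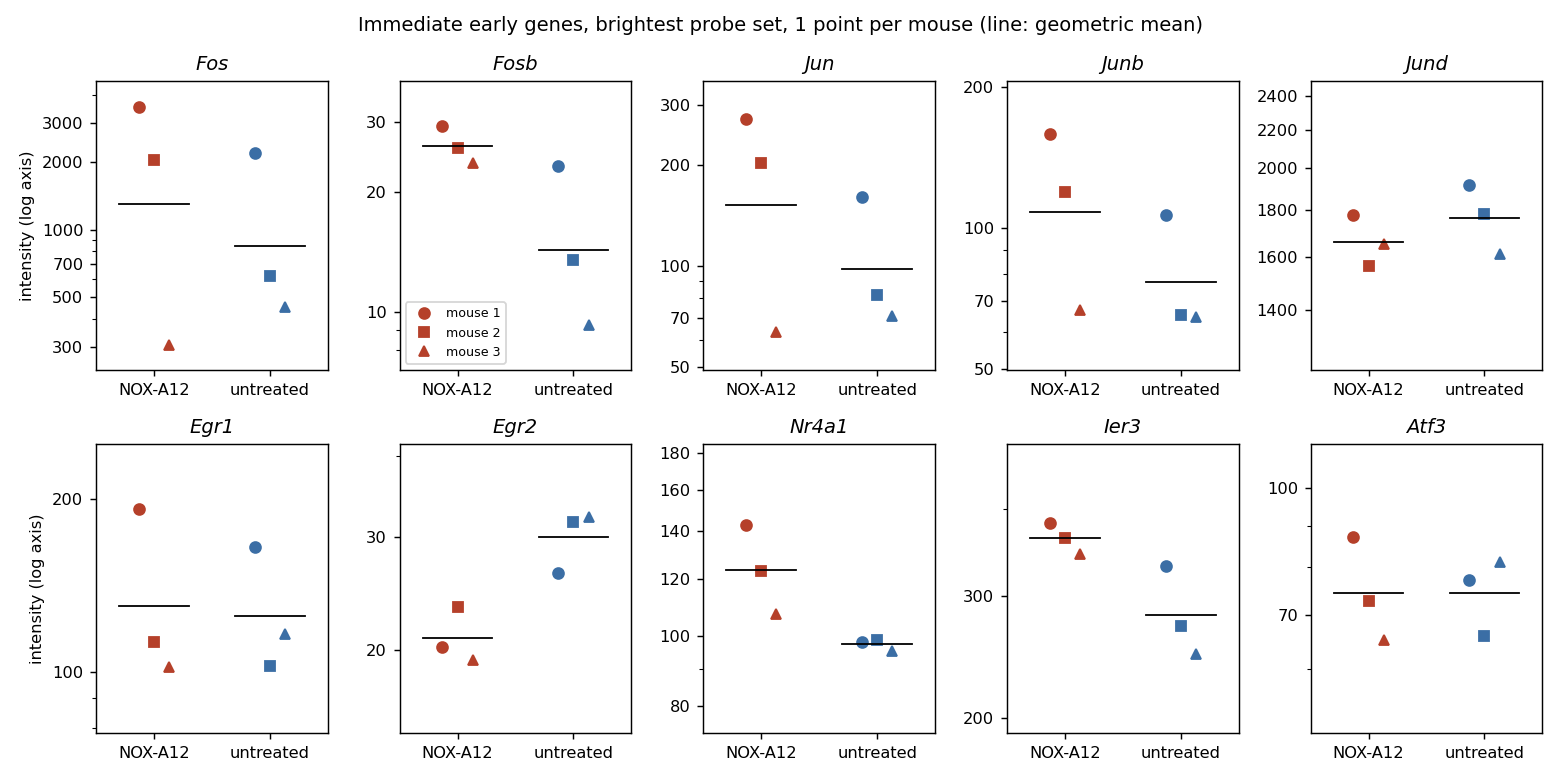
Intensity of the brightest probe set of each gene (log axis, with its own range in each panel), 1 point per mouse, NOX-A12 mice in red and untreated mice in blue, with symbols for mouse 1, 2 and 3 and a line at the geometric mean of each group. Fos spans 306 to 3544 over the NOX-A12 mice and 449 to 2205 over the untreated mice, while Nr4a1 and Ier3 separate the groups by smaller amounts.

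Fos, the AP-1 subunit whose transcript is induced fastest and lost fastest, had intensities of 3544, 2041 and 306 in NOX-A12 mice 1, 2 and 3, against 2205, 618 and 449 in untreated mice 1, 2 and 3. NOX-A12 mouse 3 was the lowest of the 6 and NOX-A12 mouse 1 the highest, so the NOX-A12 values enclosed all untreated values. The highest NOX-A12 mouse was 11.6 times the lowest, and the highest untreated mouse was 4.91 times the lowest. The residual SD of Fos, 1.54 on the log2 scale, was exceeded by 1 of the 45037 probe sets, and the median over all probe sets was 0.16. Fos averaged 1964 ± 1620 in NOX-A12 marrow and 1091 ± 969 in untreated marrow (SD, n = 3 each). Its change was 0.62 ± 0.94 (95% interval -1.58 to 2.82, limma adjusted p = 0.970), smaller than its error. Leaving out NOX-A12 mouse 1, 2 or 3 gave changes of -0.09, 0.30 and 1.64, and leaving out untreated mouse 1, 2 or 3 gave 1.29, 0.39 and 0.17.

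Jun, the transactivating partner of FOS, was highest in the same mice as Fos at its brightest probe set. It had 273, 202 and 63.4 in NOX-A12 mice 1, 2 and 3, against 160, 81.8 and 70.8 in untreated mice 1, 2 and 3. NOX-A12 mice 1 and 2 and untreated mouse 1 were the 3 highest for both genes, and NOX-A12 mouse 3 was the lowest. The change was 0.58 ± 0.49 (95% interval -0.57 to 1.73, limma adjusted p = 0.967). Leaving out NOX-A12 mouse 1, 2 or 3 gave 0.20, 0.41 and 1.13, and leaving out untreated mouse 1, 2 or 3 gave 0.89, 0.47 and 0.38. The dimmer Jun probe set did not share the order: it read 71.7, 48.5 and 31.2 in NOX-A12 mice 1, 2 and 3, against 54.1, 61.9 and 63.5 in untreated mice 1, 2 and 3. Its change was -0.23 ± 0.21, opposite in sign to the brighter probe set, so the direction for Jun depends on the probe set. The mean of both gave 0.17.

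Junb, a subunit that often opposes JUN and restrains myeloid proliferation, had 159, 120 and 66.8 in NOX-A12 mice 1, 2 and 3, against 107, 65.3 and 64.6 in untreated mice 1, 2 and 3. The same 3 mice were highest as for Fos and Jun, and the remaining 3 lay close together. The change was 0.43 ± 0.29 (95% interval -0.25 to 1.11, limma adjusted p = 0.967), with 0.73 without NOX-A12 mouse 3 and 0.19 without NOX-A12 mouse 1.

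Jund, the AP-1 subunit that is expressed constitutively, was nearly level. Its brightest probe set had 1775, 1563 and 1653 in NOX-A12 mice 1, 2 and 3, against 1916, 1784 and 1611 in untreated mice 1, 2 and 3. The groups overlapped and no mouse stood out, with a highest value 1.23 times the lowest over all 6. The change was -0.09 ± 0.11 (95% interval -0.33 to 0.16, limma adjusted p = 0.967). Its dimmer probe set stayed between 3.22 and 8.90, close to background, and was higher in every NOX-A12 mouse, at 0.20 ± 0.10.

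Fosb, a close relative of FOS, was dim, with every value below 30. It had 29.2, 25.8 and 23.6 in NOX-A12 mice 1, 2 and 3, against 23.3, 13.5 and 9.27 in untreated mice 1, 2 and 3. The groups did not overlap, but NOX-A12 mouse 3 and untreated mouse 1 nearly met. The change was 0.45 ± 0.17 (95% interval 0.06 to 0.84, limma adjusted p = 0.967). Its size depended on the offset, with 0.82 where 1 was added to the intensities in place of 16 and 0.19 where 64 was added.

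Atf3, a stress-induced factor that represses inflammatory genes, averaged 75.0 ± 11.2 in NOX-A12 marrow and 74.8 ± 7.99 in untreated marrow (SD, n = 3 each). Its values were 87.2, 72.7 and 65.2 in NOX-A12 mice 1, 2 and 3, against 77.2, 65.8 and 81.2 in untreated mice 1, 2 and 3. The group means were nearly equal, and the change was 0.00 ± 0.12 (95% interval -0.29 to 0.29, limma adjusted p = 1). Its sign turned with single mice, from -0.09 without NOX-A12 mouse 1 to 0.08 without NOX-A12 mouse 3.

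**Figure D2:**
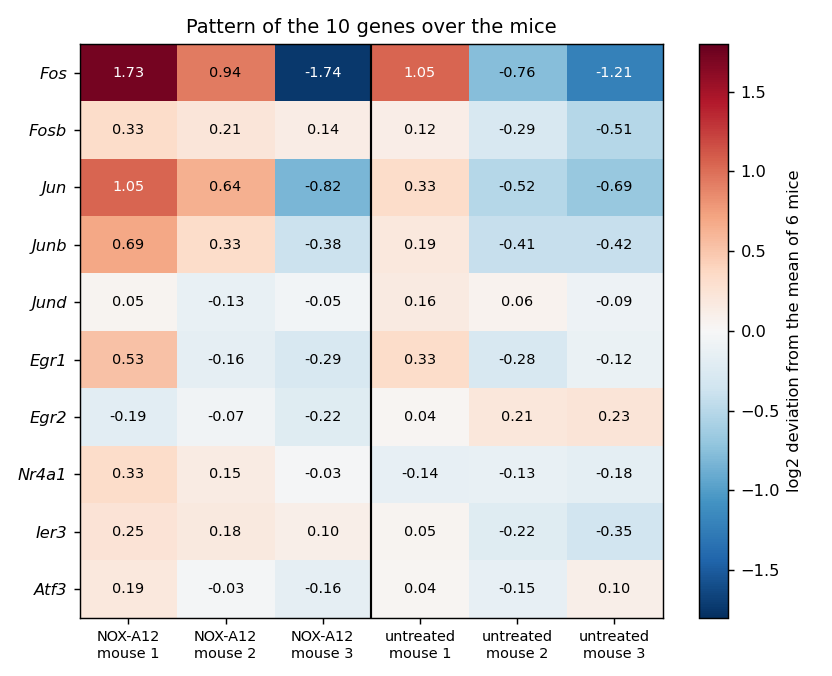
Deviation of log2(intensity + 16) from the mean of the 6 mice for the brightest probe set of each gene (rows), NOX-A12 mice in the left columns and untreated mice in the right, with red for higher and blue for lower. Fos, Jun and Junb are red in NOX-A12 mice 1 and 2 and untreated mouse 1 and blue in the other 3 mice, while Nr4a1, Ier3 and Fosb are highest in the NOX-A12 mice.

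Egr1, a factor that promotes monocyte over neutrophil fate, had 192, 113 and 102 in NOX-A12 mice 1, 2 and 3, against 165, 102 and 116 in untreated mice 1, 2 and 3. Mouse 1 of each group was high and the other 4 mice lay between 102 and 116. The change was 0.05 ± 0.25 (95% interval -0.53 to 0.63, limma adjusted p = 0.991). Its sign turned with single mice: leaving out NOX-A12 mouse 1, 2 or 3 gave -0.20, 0.15 and 0.21, and leaving out untreated mouse 1, 2 or 3 gave 0.23, -0.08 and 0.00.

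Egr2, a related factor of macrophages and lymphocytes, was dim and lay lower in NOX-A12 marrow at its brighter probe set, with 20.2, 23.3 and 19.3 in NOX-A12 mice 1, 2 and 3, against 26.3, 31.6 and 32.2 in untreated mice 1, 2 and 3. The groups did not overlap. The change was -0.32 ± 0.10 (95% interval -0.55 to -0.08, limma adjusted p = 0.967), and it lay between -0.38 and -0.28 with any single mouse left out. With an offset of 1 it was -0.50, and with an offset of 64 it was -0.15. The dimmer Egr2 probe set had 14.2, 12.4 and 15.0 in NOX-A12 mice 1, 2 and 3, against 13.8, 21.5 and 11.8 in untreated mice 1, 2 and 3. These values overlapped, with a change of -0.08 ± 0.13, and the mean of both probe sets gave -0.20.

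Nr4a1, an orphan nuclear receptor needed for patrolling monocytes, had 143, 123 and 108 in NOX-A12 mice 1, 2 and 3, against 98.1, 98.8 and 95.3 in untreated mice 1, 2 and 3. The untreated mice lay within 1.04-fold of each other and below every NOX-A12 mouse. The change was 0.30 ± 0.11 (95% interval 0.04 to 0.57, limma adjusted p = 0.967), and it lay between 0.21 and 0.39 with any single mouse left out. Ier3, an inhibitor of apoptosis induced by NF-kappaB and growth factors, had 382, 363 and 344 in NOX-A12 mice 1, 2 and 3, against 331, 272 and 248 in untreated mice 1, 2 and 3. Again every NOX-A12 mouse was above every untreated mouse. The change was 0.35 ± 0.12 (95% interval 0.06 to 0.64, limma adjusted p = 0.967), between 0.26 and 0.46 with any single mouse left out.

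**Figure D3:**
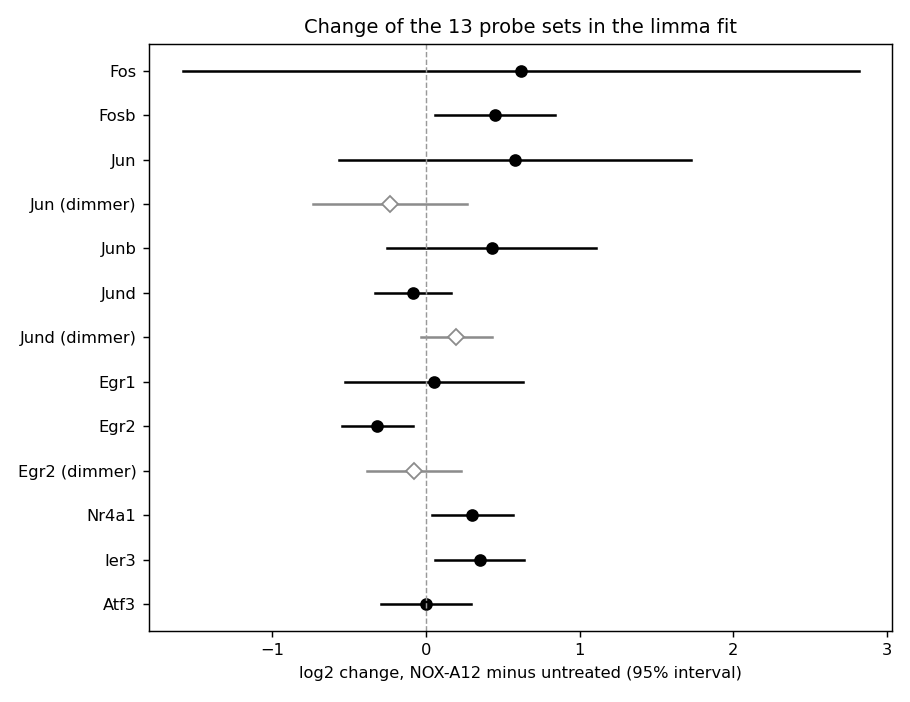
Log2 change (NOX-A12 minus untreated) with its 95% interval for all 13 probe sets in the limma fit, with filled circles for the brightest probe set of a gene and open diamonds for a dimmer one. The interval of Fos runs from -1.58 to 2.82, and those of Fosb, Nr4a1, Ier3 and the brighter Egr2 probe set leave out 0 before adjustment for multiple tests.

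Leaving out single mice moved the genes by different amounts. Fos and Jun had the widest ranges, -0.09 to 1.64 and 0.20 to 1.13, and Junb lay between 0.19 and 0.73. Fosb lay between 0.31 and 0.63 and Jund between -0.15 and -0.03. No member passed the limma test with any single mouse left out (lowest adjusted p = 0.620).

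**Figure D4:**
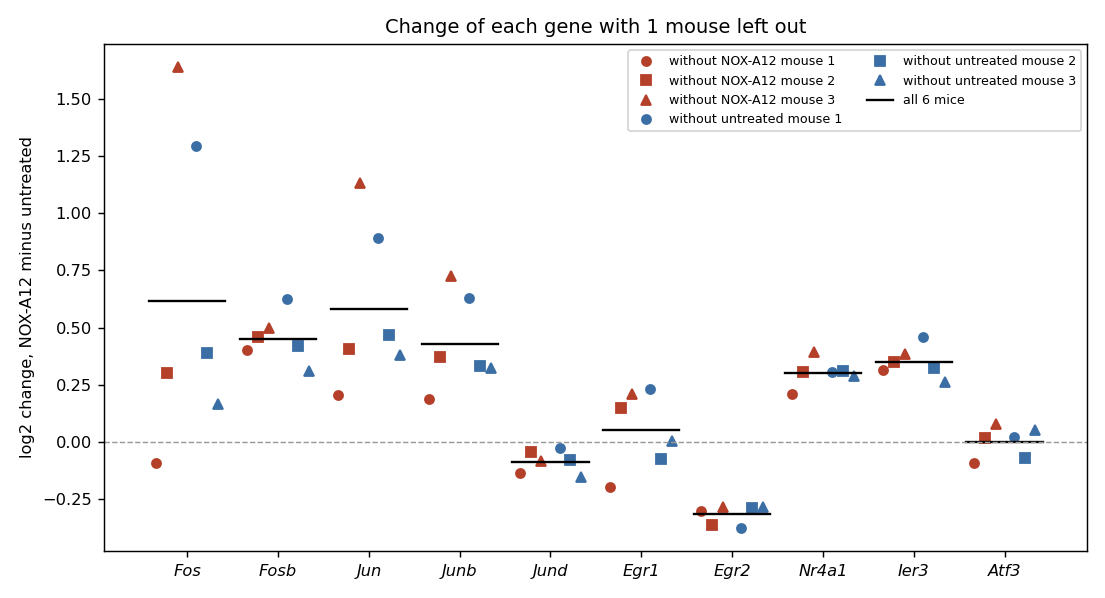
Log2 change (NOX-A12 minus untreated) of each gene with 1 mouse left out, with red symbols where a NOX-A12 mouse and blue symbols where an untreated mouse was left out, and a black line for all 6 mice. Fos spreads from -0.09 to 1.64, whereas Egr2 stays between -0.38 and -0.28 and Nr4a1 between 0.21 and 0.39.

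Genes whose products pair with FOS and JUN, or belong to the same leucine-zipper class, differed little. Of 13 measured, 10 were higher and 3 lower, with a median of 0.07, and 0 passed the limma test. At an unadjusted p under 0.05, 1 was higher and 0 were lower, against 1.78% and 3.52% (5.29% in either direction) of all genes by their brightest probe set. Batf, a partner of JUN in lymphocytes, had 179, 159 and 152 in NOX-A12 mice 1, 2 and 3, against 144, 127 and 117 in untreated mice 1, 2 and 3, a change of 0.30 ± 0.11 with groups that did not overlap. Jdp2, a repressor of AP-1, gave 0.20 ± 0.10, also without overlap. Atf4, the factor of the integrated stress response, gave 0.25 ± 0.14, but 0.11 without untreated mouse 3, and Fosl1, which encodes FRA1, gave 0.19 ± 0.12.

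Other immediate early transcription factor genes were higher in 11 of 15 cases, with a median of 0.11, and 0 passed the limma test. At an unadjusted p under 0.05, 1 was higher and 0 were lower, against 1.78% and 3.52% of all genes. Klf4, a factor of monocyte differentiation, had 764, 840 and 779 in NOX-A12 mice 1, 2 and 3, against 702, 670 and 541 in untreated mice 1, 2 and 3. Its change was 0.32 ± 0.12 with groups that did not overlap, and 0.21 without untreated mouse 3. Egr4, another EGR family gene, gave 0.24 ± 0.12 at intensities below 30, and Nr4a2, a relative of Nr4a1, gave 0.28 ± 0.14. Egr3 gave -0.33 ± 0.20, with 33.8 in untreated mouse 2 and 11.0 to 15.9 in the other 5 mice.

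Immediate early effector genes divided nearly evenly, with 11 of 24 higher and a median of -0.0038. None passed the limma test, and 0 higher and 1 lower had an unadjusted p under 0.05, against 1.78% and 3.52% of all genes. Rgs1, which dampens chemokine receptor signalling, had 110, 91.2 and 82.4 in NOX-A12 mice 1, 2 and 3, against 112, 119 and 120 in untreated mice 1, 2 and 3, a change of -0.28 ± 0.11. The matricellular genes Ccn1, at dim levels of 8.49 to 51.8, and Ccn2 gave -0.71 ± 0.32 and -0.78 ± 0.38. Without untreated mouse 3 they gave -0.48 and -0.54. Both overlapped between groups, and untreated mouse 1 was below the other untreated mice for both, with 103 against 256 and 280 for Ccn2. Plk2, a kinase gene of the stress response, gave 0.24 ± 0.12.

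Of the 39 genes on the lists of factors and effectors, 8 had the same 3 highest mice as Fos, as did 7.61% of all genes by their brightest probe set, a count made after the values were seen. They were Zfp36, Ptgs2, Ier2, Btg2, Ier5, Klf2, Gadd45b and Cxcl2, and the values of the first 3 are given as examples. Zfp36, which encodes an RNA-binding protein that promotes decay of cytokine transcripts, had 1438, 1015 and 604 in NOX-A12 mice 1, 2 and 3, against 982, 506 and 445 in untreated mice 1, 2 and 3. Ptgs2, the inducible cyclooxygenase gene, had 107, 30.4 and 7.72 in NOX-A12 mice 1, 2 and 3, against 67.1, 18.0 and 6.93 in untreated mice 1, 2 and 3. For Zfp36 and Ptgs2, as for Fos, NOX-A12 mouse 1 was highest and mouse 1 was the highest untreated mouse. Ier2, a transcriptional regulator gene from the list of factors, had 1308, 1286 and 794 in NOX-A12 mice 1, 2 and 3, against 1330, 749 and 728 in untreated mice 1, 2 and 3. Dusp1, a phosphatase gene that shuts off MAP kinases, was also named after its values were seen and departed from that order, with 4116, 3135 and 1413 in NOX-A12 mice 1, 2 and 3, against 2106, 3724 and 3110 in untreated mice 1, 2 and 3. Its untreated mouse 1 was the lowest untreated mouse, where Fos was highest.

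Upstream kinases and factors were level as a list, with 9 of 18 higher and a median of 0.0025, and 0 passed the limma test. At an unadjusted p under 0.05, 0 were higher and 1 was lower, against 1.78% and 3.52% of all genes. Mapk8, which encodes the kinase JNK1 that phosphorylates JUN, had 184, 174 and 189 in NOX-A12 mice 1, 2 and 3, against 226, 202 and 220 in untreated mice 1, 2 and 3. The groups did not overlap, and the change was -0.23 ± 0.09. Creb1, which encodes the factor of the cAMP response element, gave 0.53 ± 0.31, but 0.14 without untreated mouse 3, where it read 523 against 1100 to 1395 in the other 5 mice. Crem gave 0.22 ± 0.13, or 0.12 without untreated mouse 3, and Elk3, a partner of serum response factor, gave -0.19 ± 0.12.

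Genes known as targets of AP-1 and EGR factors divided evenly, with 7 of 14 higher, a median of 0.01, and 0 past the limma test. None had an unadjusted p under 0.05, against 5.29% of all genes. The heme oxygenase gene Hmox1 gave -0.31 ± 0.14, or -0.20 without untreated mouse 3, and the cytokine genes Il6 and Tnf gave -0.26 ± 0.14 and 0.32 ± 0.17. Thbs1, a matrix gene of platelets and monocytes, gave 0.54 ± 0.37, but 0.05 without untreated mouse 3, where it read 312 against 850 to 966 in the other 5 mice.

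**Figure D5:**
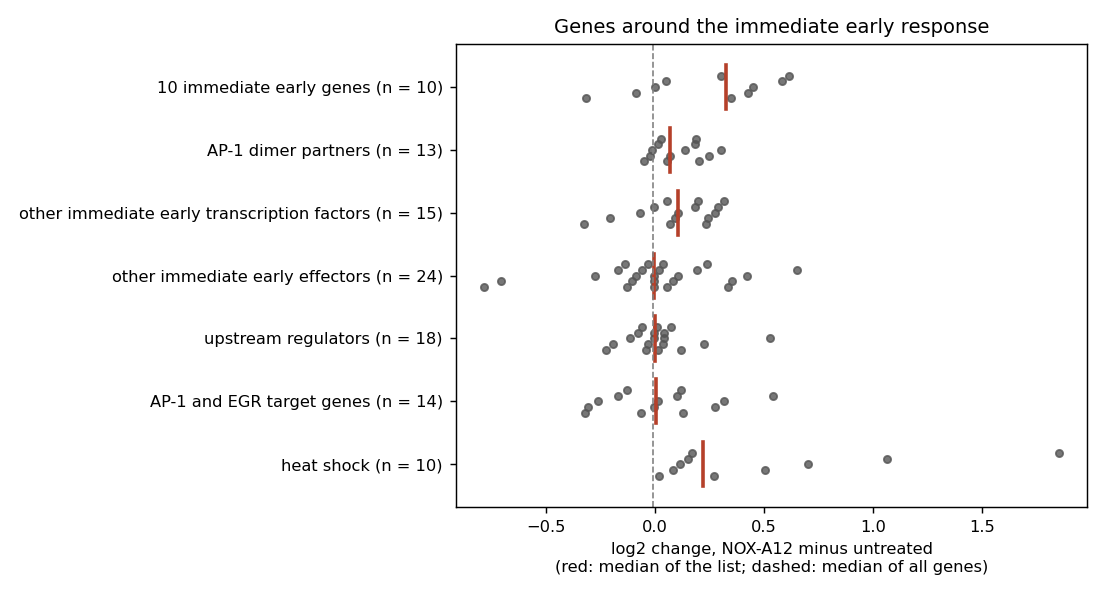
Log2 change (NOX-A12 minus untreated) of each gene by its brightest probe set, for the 10 immediate early genes, the lists around them and heat shock genes, with a red bar at the median of each list and a dashed line at the median of all genes, -0.01. The 10 immediate early genes have a median of 0.33 and the heat shock genes 0.22, and the other lists lie between -0.0038 and 0.11.

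Heat shock genes and markers of several cell types also lay apart between the groups. Of the cell-type markers, 0 passed the limma test (lowest adjusted p = 0.790). All 10 heat shock genes were higher in NOX-A12 marrow, with a median of 0.22, where 47.3% of all genes were higher, and 0 passed the limma test. At an unadjusted p under 0.05, 4 were higher, against 1.78% of all genes. Their summed intensity was 31220, 29860 and 27207 in NOX-A12 mice 1, 2 and 3, against 27070, 23153 and 23619 in untreated mice 1, 2 and 3. The order differed from that of Fos. NOX-A12 mouse 1 was the highest for both, but NOX-A12 mouse 3, the lowest for Fos, was above every untreated mouse here. All 8 stromal reticular markers were lower, with sums of 4747 to 5468 in NOX-A12 marrow and 6508 to 7881 in untreated marrow. All 8 endothelial markers were lower, with sums of 541 to 584 in NOX-A12 marrow and 714 to 833 in untreated marrow, and all 5 B-lineage markers were lower, with sums of 2366 to 3235 in NOX-A12 marrow and 3414 to 4136 in untreated marrow.

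Of the tissue macrophage markers, 9 of 10 were lower, with sums of 7276 to 8152 in NOX-A12 marrow and 7771 to 9124 in untreated marrow. Of the monocyte markers, 5 of 7 were higher, with sums of 10760 to 13119 in NOX-A12 marrow and 6847 to 10473 in untreated marrow. The separation of the sums came from Cd14. The other 6 summed to 9283 to 10827 in NOX-A12 marrow and 6322 to 10074 in untreated marrow, which overlap. By itself, F13a1 also did not overlap between groups, as was so for 9.85% of all probe sets. It had 3017, 3662 and 3185 in NOX-A12 mice 1, 2 and 3, against 2961, 2312 and 1738 in untreated mice 1, 2 and 3. Mature neutrophil markers were higher in 8 of 11 cases and erythroid markers in 6 of 7. Of the T-cell markers, 3 of 5 were higher, with sums of 1768 to 2038 in NOX-A12 marrow and 1210 to 1592 in untreated marrow, mostly from Cd3d. Of the skeletal muscle markers, 4 of 8 (Acta1, Tnnt3, Tnnc2 and Myl1) were below 30 in all mice, and the rest exceeded 30 in some or all mice. Their sums were 300.1 to 355 in NOX-A12 marrow and 292 to 329 in untreated marrow. No measured marker outside the muscle and T-cell lists was below 30 in all mice. The part of these cell types and of the heat shock genes in the values of Fosb, Nr4a1, Ier3 and Egr2 was not tested.

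Averaged over the 10 genes, the centred log2 levels were 0.50, 0.20 and -0.34 in NOX-A12 mice 1, 2 and 3, against 0.22, -0.25 and -0.32 in untreated mice 1, 2 and 3. Among 10991 other genes brighter than the median of all probe sets, the 5 with the most similar pattern by Pearson's r over the 6 arrays were Spcs1 (r = 0.993), AI507597 (r = 0.988), Ifitm1 (r = 0.986), Nkx2-6 (r = 0.985) and Copg1 (r = 0.984). Fos weighs most in that average, and with 6 arrays and so many candidates such values describe these arrays alone. Ifitm1, an interferon-inducible membrane protein gene, had 1061, 897 and 672 in NOX-A12 mice 1, 2 and 3, against 901, 755 and 662 in untreated mice 1, 2 and 3.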

How the data were processed

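Total RNA of whole bone marrow was labelled with biotin and hybridised to Mouse Genome 430 2.0 arrays, per the labels' protocols. The authors' deposited values were linear probe-set intensity values in 1 table of 6 arrays, already summarised. The sources used here do not name the software or scaling that made them. Array medians were nearly equal, so no normalization was added. Probe sets were named through the platform annotation: 34945 had 1 symbol, 932 several and 9160 none listed. Values were transformed to log2(intensity + 16) and fitted over all 45037 probe sets in R 4.3.3 by limma 3.58.1 (a linear model with empirical Bayes variances, two-sided, 6 arrays, no covariate), with Benjamini-Hochberg adjustment and a threshold of 0.05. The probe set with the highest mean stood for a gene.

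The members and lists were chosen with earlier results of these data known. Named were all members, the 4 genes of each pathway list with the smallest p, markers below 30, and the 5 genes most like the members. Dusp1 and the 8 list genes with the same 3 highest mice as Fos were named after their values were seen, as were Cd14 and F13a1. List genes with no probe set of their own were not analysed here. The fit was tested on simulated data. Alternatives concerned normalization, offset, dim probe sets, variance model, array weights, a mouse-number block, single mice and the choice of probe set. The number of arrays limits the precision. Promoters came from RefSeq (GRCm38.p6), and motifs were searched on both strands. Figures were drawn with matplotlib 3.10.9.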

Additional observations from a re-analysis of the deposited data

How the results depend on the processing

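No probe set of the table passed the limma test under the alternatives refitted over the whole table, a threshold of 0.1 included. The average over probe sets was fitted for all genes named by 1 symbol and, like the dimmer probe set, was read out for the members only. The count of member probe sets at an unadjusted p under 0.05, 4 of 13 in the reported fit, was 1 to 6 with single mice left out. Among probe sets brighter than the median it was 2 of 9. Those were Nr4a1 and Ier3, and the dim probe sets of Fosb and Egr2 were not in that fit. No share of all probe sets is given beside these refits, so the counts describe the members alone. The median change of the members, 0.33, was 0.047 to 0.39 with single mice left out and -0.076 over the dimmer probe sets of Jun, Jund and Egr2, the only genes with a second one. Of 161 single-gene values under the alternatives, 152 kept their sign and 9 turned. Jun gave -0.23 and Jund 0.20 at the second probe set, and Jund gave 0.055 as the mean of its probe sets. Atf3, at 0.00, gave -4.72e-04 after quantile normalization and -0.093 to 0.080 with single mice left out, turning for NOX-A12 mouse 1 and untreated mouse 2. Egr1 turned for the same mice, over a range of -0.20 to 0.23. Fos, with a range of -0.093 to 1.64, turned for NOX-A12 mouse 1. The cause was not tested.

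Whether mice of equal number in the groups were handled together was not tested. Deviations from the group means correlated at r = -0.09, 0.05 and 0.03 for mice 1, 2 and 3 across all probe sets. For mice of unequal number the range was -0.21 to 0.22. Such an r cannot show whether a few genes move together. Fos deviated by 1.42, 0.63 and -2.05 in NOX-A12 mice 1, 2 and 3, against 1.35, -0.45 and -0.90 in untreated mice 1, 2 and 3. In the same order, Jun deviated by 0.76, 0.35 and -1.11, against 0.62, -0.22 and -0.40. For Nr4a1 the untreated deviations were small, at 0.01, 0.02 and -0.03. With the mouse number as a replicate block, 0 probe sets passed, 2117 had an unadjusted p under 0.05 against 2240 without the block, and 5 member probe sets did against 4. The SE of Fos was 0.41 with the block and 0.94 without it, and no call changed. Leaving out untreated mouse 3 was applied to the pathway lists after the data were seen: 8 of 13 dimer partners, 11 of 15 factors, 10 of 24 effectors, 10 of 18 regulators, 10 of 14 targets and 10 of 10 heat shock genes were then higher. Dim probe sets such as those of Fosb and Egr2 limit what can be read from their sign.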
